A study of Homo sapiens with 6 samples.

Results

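PAR bZIP factors and circadian clock genes were examined by RNA-seq in Hep3B cells, an established human hepatocellular carcinoma line. The set held 10 genes, HLF, DBP, TEF, NFIL3, PER1, PER2, PER3, ARNTL, CRY1 and CRY2, taken by their symbols from the 23228 genes of the deposited tables, and grouped by their known function. All 10 were among the 14537 genes that passed a filter on low counts. The control group (3 libraries) carried a non-targeting shRNA and the PELP1-KD group (3 libraries) carried shRNA against PELP1. An shRNA is a hairpin that is processed into a small RNA targeting a matching mRNA, and the sample titles name sh1, whereas the protocol names a pair of hairpins. Both were delivered by lentivirus into Hep3B cells grown in RPMI medium, and the knockdown cells were pools of puromycin-selected stable clones. The 3 samples of a group are not said to come from separate cultures, so the p-values measure the spread between these samples, which may be technical. The hour of harvest and any synchronization of the cultures, which matter for clock genes, are not given in the sources used here.

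The circadian clock is a feedback loop of transcription. ARNTL (also called BMAL1) pairs with CLOCK and activates genes through a short DNA element, the E-box, among them the PER and CRY genes, whose proteins then enter the nucleus and repress ARNTL and CLOCK. The PAR bZIP factors HLF, DBP and TEF are activators named for a proline- and acidic amino acid-rich region, and in the liver they bind D-box elements in genes of metabolism and detoxification. NFIL3 (E4BP4) represses through the same D-box. DBP, as listed in the tables, is the D-site of albumin promoter binding protein, and not the vitamin D-binding protein, whose gene is GC.

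Depth ranged from 26758180 to 34456393 reads assigned to genes per library, and a gene's log2 fold change had a median standard error (SE) of 0.063. PELP1 itself had 4970 ± 115 normalized reads (SD, n = 3) in control and 4695 ± 238 (SD, n = 3) in the PELP1-KD libraries, 94.5% of control (log2 fold change −0.08, adjusted p = 0.101), and was called lower with the replicate number as a block (adjusted p = 0.0106) and without replicate 3 of PELP1-KD (adjusted p = 0.018). Directions below are therefore those of the library labels. The study's Western blots showed lower PELP1 protein in Hep3B knockdown cells, which these RNA counts do not measure. Of 10 hepatocyte markers all were expressed, with a summed level of 25484 to 25879 CPM in control and 21916 to 22360 in the PELP1-KD libraries. Among these markers 7 were called lower and 2 higher, beside 26.8% of all tested genes in each direction. Of 11 markers of blood, endothelial, stromal and glial cells, 3 passed the filter (CD68 called higher, PDGFRB called lower, PECAM1 not called). The summed level of all 11 was 48.3 to 53.9 CPM in control and 62.7 to 67.1 in the PELP1-KD libraries, with CDH5 at 0 in all 6 libraries. Most of this sum was CD68, with a mean of 1381 normalized reads in control and 1927 in PELP1-KD. PDGFRB had means of 144 and 32.7, and PECAM1 of 66.9 and 62.7. The part of these shifts in the results below was not tested.

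In the PELP1-KD libraries PER3, HLF and ARNTL were lower and PER1 and CRY1 were higher than in control. ARNTL was called in only 9 of 13 alternative fits, and the others in all 13. By edgeR's quasi-likelihood test with an adjusted p below 0.05, 5 of the 10 members were called, 3 of them lower and 2 of them higher, where 53.6% of all tested genes were called, 26.8% lower and 26.8% higher. Of the 10, 1 gene, PER3, changed at least 2-fold, as did 7.65% of all tested genes. The groups did not overlap for 7 of the 10 genes, which was so for 58.8% of all tested genes. The median log2 fold change of the 10 genes was −0.003, and that of all tested genes was 0.004. The shares of genes called were thus near the background, and what follows describes the individual members. In bulk RNA, fewer cells of a type and less RNA per cell cannot be told apart. Normalized reads are the reads of a gene scaled to a common library size with TMM factors.

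**Figure D1:**
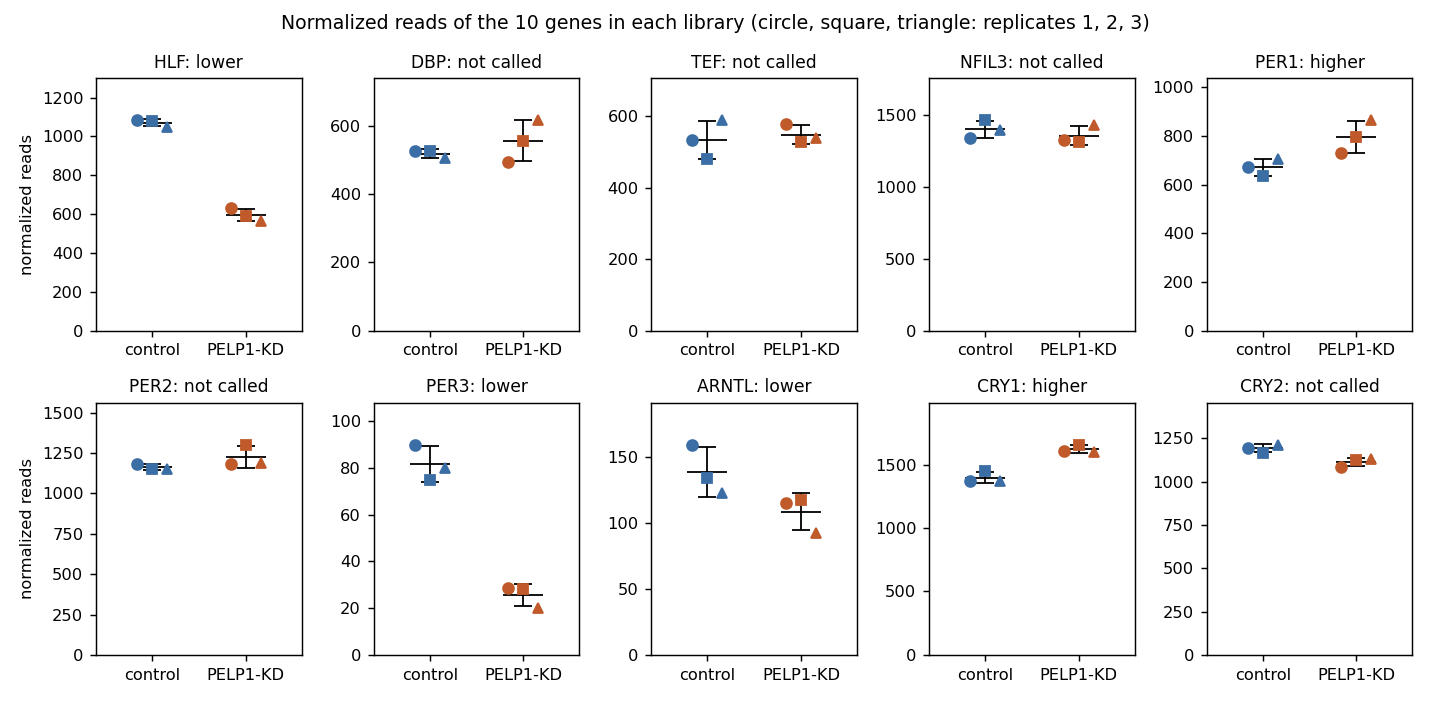
Normalized reads (vertical axis, from 0) of each of the 10 genes in the 3 control and 3 PELP1-KD libraries, with the mean and SD as bars and replicates 1, 2 and 3 as circle, square and triangle. HLF lies at 1050 to 1083 in control and 563 to 630 in PELP1-KD, and PER3 at 74.8 to 89.8 and 20.0 to 28.7.

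HLF, named hepatic leukemia factor, spans bases 53342321 to 53402426 of chromosome 17 (plus strand, hg19, as are all positions given). It had 1083, 1078 and 1050 normalized reads in control and 630, 593 and 563 in PELP1-KD. All PELP1-KD values lay below all control values, with replicate 3 lowest in both groups. HLF changed by a log2 fold of −0.85 (SE 0.06, 95% interval −0.97 to −0.72, adjusted p = 2.56e-10), so HLF RNA stood at 55.6% of the control level. It was called in all 13 alternative fits, between −0.89 and −0.81. HLF is among the genes for which the study lists RT-qPCR primers, so its direction in these libraries is not independent of the study's own choice. Of 14537 tested genes, HLF ranked 492 by p.

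The promoter of HLF is shown because it is the PAR bZIP gene that fell. The window is that of RefSeq (table build GRCh38.p14), from 250 bases before to 50 bases after a start site, and matched hg19 once, at chr17:53342071-53342370 on the plus strand. Capitals mark a cyclic AMP response element, TGACGTCA, which begins 7 bases before the start and spans it.
HLF: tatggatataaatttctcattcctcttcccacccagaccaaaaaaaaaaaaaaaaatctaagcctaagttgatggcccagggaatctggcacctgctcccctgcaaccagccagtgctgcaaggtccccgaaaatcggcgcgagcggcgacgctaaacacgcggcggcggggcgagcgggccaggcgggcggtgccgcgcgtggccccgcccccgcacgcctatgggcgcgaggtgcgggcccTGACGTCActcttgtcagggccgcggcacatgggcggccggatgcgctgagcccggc
The element was searched on both strands and is held by 1.85% of the 35116 promoter windows of the table. No E-box (CACGTG) and no D-box (TTATGTAA, TTACGTAA or TTATATAA, reverse complements included) was found in either of the HLF windows.

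DBP, on chromosome 19 from 49133817 to 49140639 on the minus strand, had 528, 526 and 506 normalized reads in control. The PELP1-KD libraries had 497, 558 and 617, with replicate 1 below and replicates 2 and 3 above every control value. DBP had a log2 fold change of 0.10 (SE 0.08, 95% interval −0.06 to 0.26, adjusted p = 0.286), and replicate 3 of PELP1-KD held the highest value. Without that library the log2 fold change was 0.018 (adjusted p = 0.864). TEF, the thyrotroph embryonic factor, on chromosome 22 from 41763392 to 41795330, had 532, 480 and 588 normalized reads in control and 577, 527 and 538 in the PELP1-KD libraries. All of the PELP1-KD values lay inside the range of the control values. Its log2 fold change was 0.04 (SE 0.08, 95% interval −0.12 to 0.20, adjusted p = 0.684). The intervals of DBP and TEF lay apart from that of HLF.

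NFIL3, the repressor, lies on chromosome 9 from 94171327 to 94186144 on the minus strand. It had 1339, 1462 and 1398 normalized reads in control and 1323, 1312 and 1431 in the PELP1-KD libraries, and the groups overlapped. The log2 fold change was −0.05 (SE 0.05, 95% interval −0.15 to 0.06, adjusted p = 0.483). A fall as large as that of HLF lay outside this interval.

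Since HLF fell and its paralogs were not called, the make-up of the PAR bZIP RNA was compared per exon length, in RPKM (reads scaled to exon length and to the TMM-scaled library size). HLF held 30.6%, 31.2% and 30.1% of the summed RPKM of the 3 factors in control and 20.8%, 18.9% and 16.9% in PELP1-KD. DBP, the most abundant of the 3, held between 49.3% and 51.8% in control and between 55.9% and 63.3% in the PELP1-KD libraries. TEF held 17.0% to 20.6% and 19.8% to 23.3%. The summed level was 19.9 ± 0.210 RPKM in control and 18.0 ± 0.854 RPKM in PELP1-KD (SD, n = 3 each). NFIL3 stood at 1.08 ± 0.058 times the summed level of the activators in control and at 1.15 ± 0.026 times in PELP1-KD (SD, n = 3 each), with overlapping values. These shares are descriptions and were not tested.

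**Figure D2:**
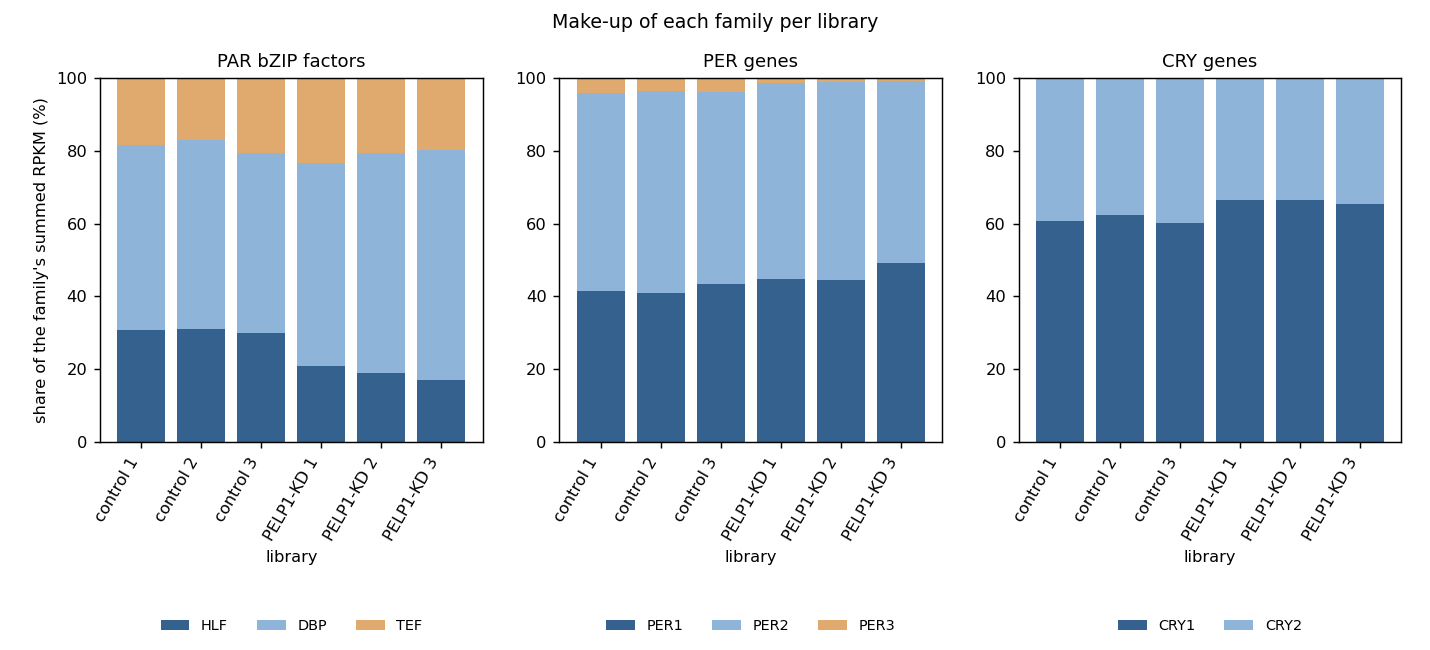
Share (%) of each gene in the summed RPKM of its family, as stacked bars from 0 to 100 for each of the 6 libraries, for the PAR bZIP factors, the PER genes and the CRY genes. The HLF part is 30.1% to 31.2% in control and 16.9% to 20.8% in PELP1-KD, and the CRY1 part is higher in every PELP1-KD library than in any control library.

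The PER genes encode the period proteins, the repressors that build up and are degraded in each cycle. PER3 fell, PER1 rose and PER2 was not called. PER3, on chromosome 1 from 7844763 to 7905237, was the least abundant of the 10 genes, with 89.8, 74.8 and 80.1 normalized reads in control and 28.7, 28.0 and 20.0 in the PELP1-KD libraries. The groups were far apart, and replicate 3 of PELP1-KD, with 20 reads as counted, was lowest. PER3 fell, with a log2 fold change of −1.68 (SE 0.20, 95% interval −2.10 to −1.25, adjusted p = 9.46e-07), which is 31.3% of the control level. PER3 was called in all 13 alternative fits, with values from −1.78 to −1.52.

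PER1, on chromosome 17 from 8043788 to 8055753 on the minus strand, is a period gene that also responds quickly to serum and to cyclic AMP. It had 673, 634 and 706 normalized reads in control and 732, 795 and 864 in the PELP1-KD libraries. Every PELP1-KD value lay above every control value, and replicate 3 was highest in both groups. PER1 rose, with a log2 fold change of 0.25 (SE 0.07, 95% interval 0.11 to 0.39, adjusted p = 0.0044), or 119% of control, and the 13 alternative fits all called it, the lowest value being 0.18 without replicate 3 of PELP1-KD. PER2, on chromosome 2 from 239152679 to 239197207 on the minus strand, had 1183, 1154 and 1152 normalized reads in control and 1183, 1301 and 1187 in the PELP1-KD libraries. Control replicate 1 and PELP1-KD replicate 1 were almost equal, and replicate 2 of PELP1-KD stood above the rest. PER2 had a log2 fold change of 0.07 (SE 0.05, 95% interval −0.04 to 0.18, adjusted p = 0.258).

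Within the summed RPKM of the PER genes, PER3 made up 4.21%, 3.67% and 3.75% in control and 1.33%, 1.19% and 0.862% in PELP1-KD. PER1 held 41.0% to 43.5% and 44.6% to 49.1%, and PER2 held 52.7% to 55.3% and 50.1% to 54.2%. The summed level of the family was 10.8 ± 0.284 RPKM in control and 11.7 ± 0.545 RPKM in PELP1-KD (SD, n = 3 each), so the sum did not follow PER3, the rarest of the 3.

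The promoters of the PER genes are shown because a window of each holds a clock element. All are RefSeq windows of 300 bases placed on hg19 by exact match. Capitals mark matches to the D-box words searched in PER3 and PER2 and an E-box in PER1. The PER3 window, whose start site lies 412 bases before the gene start in the tables, is at chr1:7844101-7844400 on the plus strand, that of PER2 at chr2:239197202-239197501 and that of PER1 at chr17:8055673-8055972, both on the minus strand.
PER3: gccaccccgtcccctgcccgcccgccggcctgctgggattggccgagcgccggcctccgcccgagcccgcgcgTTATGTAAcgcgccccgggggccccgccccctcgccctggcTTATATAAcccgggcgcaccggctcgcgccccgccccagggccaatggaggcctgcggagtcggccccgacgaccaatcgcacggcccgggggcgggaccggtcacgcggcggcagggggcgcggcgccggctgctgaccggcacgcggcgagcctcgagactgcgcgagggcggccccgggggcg
PER2: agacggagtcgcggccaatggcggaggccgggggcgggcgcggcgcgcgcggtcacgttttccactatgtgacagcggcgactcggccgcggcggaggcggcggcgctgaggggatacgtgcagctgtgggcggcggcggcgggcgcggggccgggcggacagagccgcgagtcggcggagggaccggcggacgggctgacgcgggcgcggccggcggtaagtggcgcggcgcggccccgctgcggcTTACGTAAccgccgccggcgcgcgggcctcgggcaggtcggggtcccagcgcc
PER1: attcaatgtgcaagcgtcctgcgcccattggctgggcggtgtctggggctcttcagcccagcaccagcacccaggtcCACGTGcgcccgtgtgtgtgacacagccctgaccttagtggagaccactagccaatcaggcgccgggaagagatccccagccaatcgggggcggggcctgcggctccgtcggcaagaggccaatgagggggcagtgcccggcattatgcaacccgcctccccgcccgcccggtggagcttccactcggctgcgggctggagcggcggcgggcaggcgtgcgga
PER3 held 2 matches to the D-box words searched, TTATGTAA beginning 177 bases and TTATATAA beginning 136 bases before the start. TTATATAA lacks the G that the other 2 words share. PER2 held 1, TTACGTAA, which begins 3 bases before the start and spans it. A match to any of the D-box words, TTATATAA included, is held by 1.43% of all promoter windows. Of the 16 windows of the 10 genes, 2 held one, those of PER2 and PER3. The second PER3 window held none. The E-box of PER1 begins 173 bases before the start, and both TEF windows held one too. An E-box is held by 7.26% of all windows. Both PER3, which fell, and PER2, which was not called, held a D-box. A match describes letters and not binding, and a link of these elements to the calls was not tested.

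ARNTL, on chromosome 11 from 13299325 to 13408812, encodes the activator that partners CLOCK. It had 160, 134 and 123 normalized reads in control and 116, 118 and 92.9 in the PELP1-KD libraries. The PELP1-KD values all lay below the control values, but control replicate 3 stood close to PELP1-KD replicates 1 and 2. ARNTL fell, with a log2 fold change of −0.36 (SE 0.14, 95% interval −0.65 to −0.07, adjusted p = 0.0347), or 78.3% of control. This was the largest adjusted p among the 5 called genes. The call was lost with DESeq2 (−0.36, adjusted p = 0.107), without control replicate 1 (−0.24, adjusted p = 0.202), without control replicate 2 (−0.38, adjusted p = 0.0555) and without replicate 3 of PELP1-KD (−0.25, adjusted p = 0.142), and it was kept in the other 9 of 13 alternatives.

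The promoter of ARNTL is shown since its regulation by ROR activators and REV-ERB repressors, through ROR elements, is the second loop of the clock. RefSeq lists the gene as BMAL1, and the window lies at chr11:13299087-13299386 on the plus strand of hg19. Capitals mark the core of a ROR element, TAGGTCA, beginning 30 bases after the start.
ARNTL: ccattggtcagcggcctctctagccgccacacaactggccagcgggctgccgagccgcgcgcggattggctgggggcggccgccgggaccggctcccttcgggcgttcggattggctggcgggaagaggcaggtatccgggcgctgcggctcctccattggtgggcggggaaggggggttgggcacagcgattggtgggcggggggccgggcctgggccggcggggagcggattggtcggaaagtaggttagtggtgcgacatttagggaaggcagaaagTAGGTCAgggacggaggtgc
The core, on either strand, is held by 1.85% of all promoter windows. Among the 10 genes it was also found in 1 window each of NFIL3 and CRY2, neither of which was called.

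The cryptochromes CRY1 and CRY2, the partners of the PER proteins in repression, differed in their calls, CRY1 being higher and CRY2 not called. CRY1, on chromosome 12 from 107385143 to 107487598 on the minus strand, had 1372, 1447 and 1372 normalized reads in control and 1610, 1656 and 1601 in the PELP1-KD libraries. The groups were well separated, and the replicates of PELP1-KD were close to each other. CRY1 rose by a log2 fold change of 0.22 (SE 0.05, 95% interval 0.12 to 0.31, adjusted p = 0.000652), to 116% of control, and was called in all 13 alternative fits. CRY2, on chromosome 11 from 45868669 to 45904799, had 1197, 1167 and 1213 normalized reads in control and 1087, 1125 and 1133 in the PELP1-KD libraries. All PELP1-KD values were below all control values. The log2 fold change was −0.10 (SE 0.05, 95% interval −0.20 to 0.01, adjusted p = 0.103) and was not called, but with the replicate number as a block it was (−0.10, adjusted p = 0.0463), which made 4 members lower. CRY1 held 60.3% to 62.4% of the RPKM of both genes in control and 65.5% to 66.5% in the PELP1-KD libraries, without overlap. The summed level was 22.3 ± 0.271 RPKM in control and 24.0 ± 0.365 RPKM in PELP1-KD (SD, n = 3 each).

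Levels of the 10 genes per exon length spanned a wide range. NFIL3 was highest, with 21.4 ± 0.934 RPKM in control (SD, n = 3), above 74.2% of all tested genes. It was followed by CRY1 (13.7 RPKM in control), DBP (10.1), CRY2 (8.69), HLF (6.08), PER2 (5.84), PER1 (4.53), TEF (3.71) and ARNTL (1.54). PER3 was lowest, with 0.418 ± 0.039 RPKM in control (SD, n = 3), above 9.63% of all tested genes. The control values of neighbors in this order did not overlap, and those of HLF (5.97 to 6.15 RPKM) and PER2 (5.78 to 5.93 RPKM) were closest. In the PELP1-KD libraries the order was the same except for HLF, which stood at 3.38 ± 0.189 RPKM (SD, n = 3), below PER2, PER1 and TEF, again without overlap between neighbors. None of the exons of the 10 genes in the annotation of the tables shares a base with another gene on either strand.

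**Figure D3:**
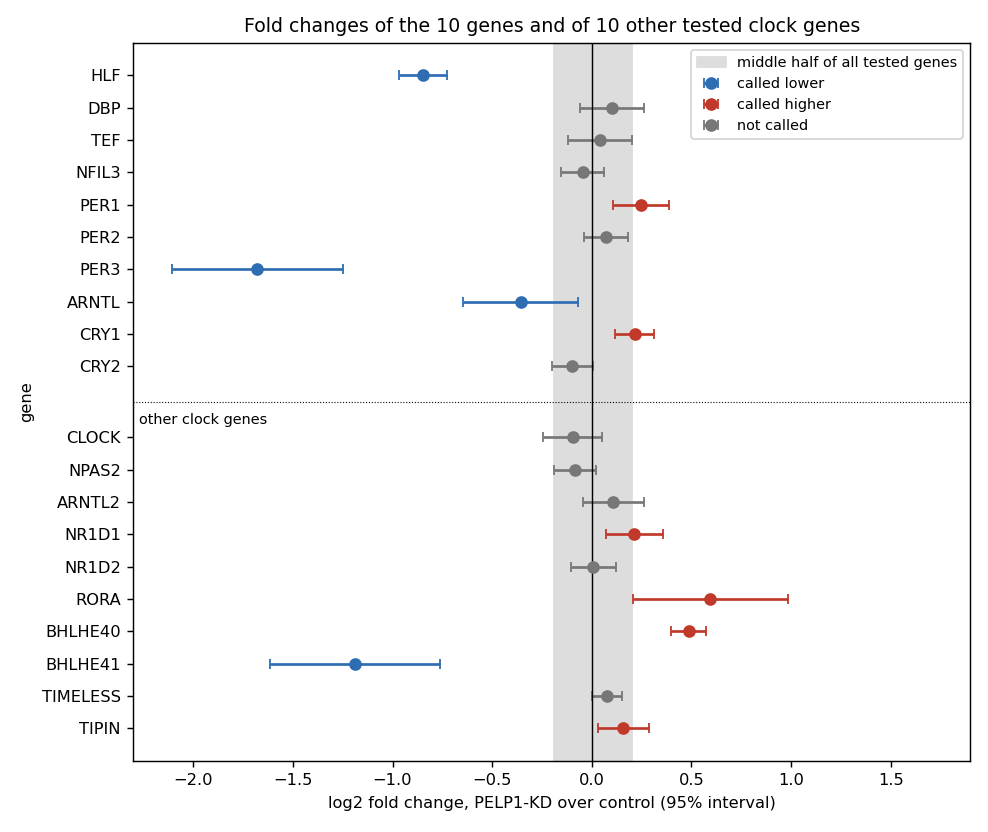
Log2 fold change of PELP1-KD over control (horizontal axis) with 95% intervals for the 10 genes and, under the dotted line, the 10 other tested clock genes, colored by call at an adjusted p below 0.05. The grey band runs between the quartiles of all tested genes, from −0.19 to 0.20, and PER3, HLF and BHLHE41 lie furthest to its left.

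The other genes of the clock were taken from a list of 13, of which 10 passed the filter. Of these, 1 was called lower and 4 higher, beside 26.8% of all tested genes in each direction. The median log2 fold change of these 10 was 0.09. Higher calls numbered 2 without control replicate 1 and 2 without replicate 2 of PELP1-KD, and lower calls numbered 2 without replicate 1 of PELP1-KD. BHLHE41 and BHLHE40, paralogous repressors that act on E-boxes, went opposite ways. BHLHE41 had 59.6, 65.2 and 66.8 normalized reads in control and 27.6, 32.7 and 24.0 in the PELP1-KD libraries (a log2 change of −1.19, SE 0.20, adjusted p = 6.18e-05). BHLHE40, far more abundant, had 3017, 3063 and 3144 in control and 4105, 4294 and 4519 in the PELP1-KD libraries (a log2 change of 0.49, SE 0.04, adjusted p = 8.06e-09). Both were separated between the groups without overlap. RORA, which encodes an activator of ARNTL, rose from a mean of 47.8 (SD 5.23) to one of 72.6 (SD 12.1) normalized reads over 3 libraries each, 0.59 on the log2 scale (adjusted p = 0.0113). This call was lost without control replicate 1 (0.51, adjusted p = 0.0513) and without replicate 2 of PELP1-KD (0.48, adjusted p = 0.0623). NR1D1, which encodes the REV-ERB repressor of ARNTL, had 610, 595 and 596 normalized reads in control and 638, 693 and 756 in PELP1-KD (a log2 change of 0.21, adjusted p = 0.0125), and was not called without replicate 3 of PELP1-KD (0.15, adjusted p = 0.0715), and its exons overlap those of THRA on the other strand. CLOCK, the partner of ARNTL, was not called, with a log2 fold change of −0.10 (95% interval −0.24 to 0.05, adjusted p = 0.265), and RORB was at 0 in all libraries.

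All 18 genes listed for kinases, ubiquitin ligases and cofactors that act on clock proteins were tested. Of these, 4 were lower and 3 higher, beside 26.8% of all tested genes in each direction. The median log2 fold change of the 18 was 0.002, and with the replicate number as a block 6 were lower and 4 higher. FBXL21, named as an F-box gene, had 162, 169 and 171 normalized reads in control and 42.0, 51.3 and 51.9 in PELP1-KD (a log2 change of −1.79, SE 0.14, adjusted p = 2.04e-09). The catalytic subunits of AMP-activated kinase, which phosphorylates CRY1, differed in direction. PRKAA2 fell by 0.52 on the log2 scale (adjusted p = 1.72e-06) and PRKAA1 rose by 0.24 (adjusted p = 0.00721). USP7 fell by 0.17 (adjusted p = 0.00152), and NONO and HUWE1 rose by 0.34 (adjusted p = 1.15e-08) and 0.17 (adjusted p = 0.00017).

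Genes listed as targets of PAR bZIP factors or D-boxes, not all of them liver genes, numbered 17, of which 9 passed the filter. Of these 9, 2 were lower, 3 higher and 4 not called, beside 26.8% of all tested genes in each direction. The median log2 fold change of the 9 was −0.02. The cholesterol 7α-hydroxylase gene CYP7A1, the nuclear receptor gene NR1I3, CYP2A6, CYP2C8, CYP3A4 and FGF21 were under the filter. F9 and TSHB were at 0 in all libraries. ALB, whose promoter gave DBP its name, fell from a mean of 347500 (SD 5369) to one of 227270 (SD 3053) normalized reads over 3 libraries each, with a log2 fold change of −0.61 (adjusted p = 6.35e-14). SULT1A1, a sulfotransferase gene, had a log2 fold change of −1.37 (adjusted p = 4.99e-11), and its near-identical copies make the value less certain. CYP2B6, a drug-metabolizing cytochrome P450 gene, had 108, 103 and 97.3 normalized reads in control and 444, 441 and 441 in PELP1-KD (a log2 change of 2.10, SE 0.09, adjusted p = 1.65e-13). The efflux pump gene ABCB1 and the heme synthesis gene ALAS1 rose by 0.52 (adjusted p = 4.19e-10) and 0.24 (adjusted p = 1.84e-05). CYP2B6 also has a near-identical pseudogene, so that its reads may be shared. The list was thus called in both directions.

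Outputs of the clock or of E-boxes, without the members, numbered 10, all tested. Of these 1 was lower and 5 higher, beside 26.8% of all tested genes in each direction. The median log2 fold change of the 10 was 0.21, and the number higher was 3 with DESeq2 and 3 without control replicate 3. WEE1, which encodes a kinase that restrains entry into mitosis, had 3320, 3380 and 3221 normalized reads in control and 1710, 1688 and 1668 in PELP1-KD, a log2 change of −0.97 (SE 0.04, adjusted p = 1.57e-13). TSC22D3, a glucocorticoid-induced gene, LPIN1, a gene of lipid synthesis, and NAMPT, an enzyme gene of NAD synthesis, rose by 0.41 (adjusted p = 0.000375), 0.26 (adjusted p = 0.000775) and 0.19 (adjusted p = 0.00236).

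Since PER1 can be induced within minutes by serum or cyclic AMP, 17 immediate early genes were listed, of which 14 were tested. Of these, 8 were lower and 4 higher, with a median log2 fold change of −0.23, where 26.8% of all tested genes were called in each direction. EGR1, an early growth response factor, had 820, 784 and 719 normalized reads in control and 139, 148 and 146 in PELP1-KD (a log2 change of −2.42, SE 0.08, adjusted p = 5.12e-15). MYC fell by 0.44 on the log2 scale (adjusted p = 8.17e-08) and JUN by 0.36 (adjusted p = 3.03e-06). KLF4 rose by 0.55 (adjusted p = 9.66e-06) and SIK1, a target of cyclic AMP signaling, by 0.27 (adjusted p = 9.95e-06), while FOSL1 (0.34, adjusted p = 0.032) was called in some fits only. With DESeq2 and without control replicate 2 or replicate 2 of PELP1-KD, 2 of the list were higher.

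**Figure D4:**
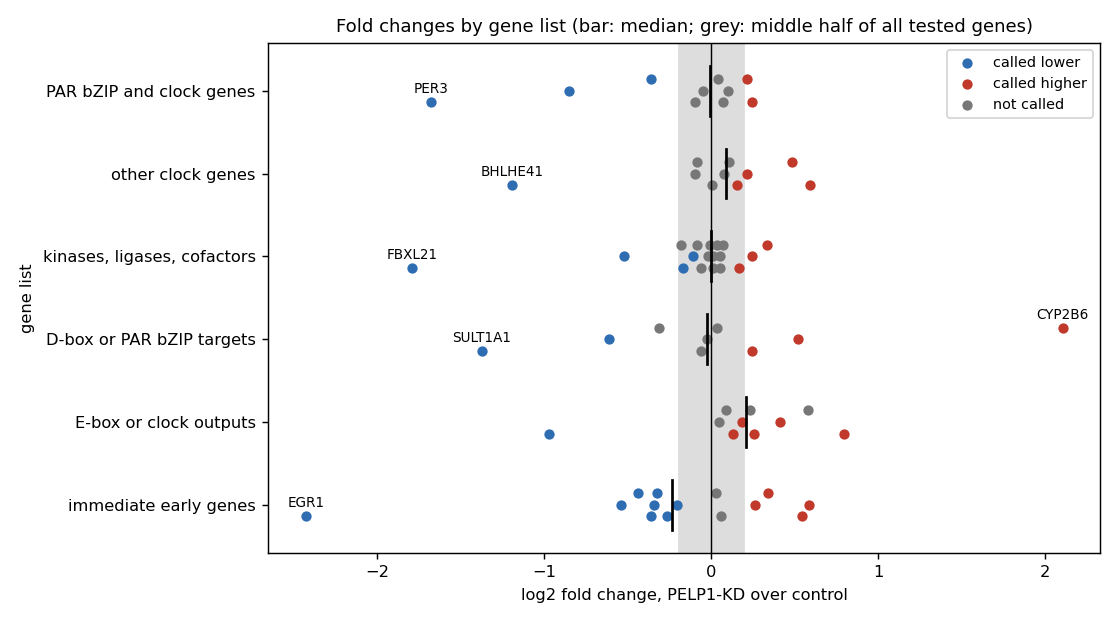
Log2 fold change of PELP1-KD over control (horizontal axis) of each tested gene of the 6 lists, with the median of each list as a black bar and the range between the quartiles of all tested genes (−0.19 to 0.20) in grey. Genes with at least a 2-fold change are named, and they include EGR1 at −2.42 and CYP2B6 at 2.10.

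The pattern of HLF over the 6 libraries was most like that of HS6ST2, MT2A, OCIAD1, UGT2B4 and ITGA1, with Pearson's r of log2 CPM from 0.998 to 0.9994. These were the highest among 4666 tested genes within 1 unit of the mean log2 CPM of HLF. With 2 groups of 3 libraries, r mainly reflects the difference between the groups, and the 5 genes had log2 fold changes from −1.60 to −0.92.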

How the data were processed

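RNA-seq of 3 control and 3 PELP1-KD libraries of Hep3B cells was analyzed, grouped by the treatment in the labels. The labels and the design text conflict on the RNA extraction kit, on single or paired reads and on poly(A) selection or removal of ribosomal RNA. The study's methods name TopHat2 and HTSeq, whereas the labels name HISAT2 and the file headers featureCounts 1.5.0-p1 (hg19, reverse stranded, mapping quality of at least 2, multi-mapping and multi-gene reads shared as fractions). Each deposited table holds unnormalized estimated counts of 1 library, of which 10.6% to 13.3% were not whole.

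Counts were rounded and fitted with edgeR 4.0.16 (R 4.3.3; filterByExpr, TMM, robust glmQLFit, glmQLFTest), with Benjamini-Hochberg adjustment over all 14537 tested genes. A gene was called at an adjusted p below 0.05. The standard error was derived from the fitted change and its F statistic. RPKM used the exon lengths of the tables. Promoter windows of RefSeq matched all 10 genes (16 windows), each placed once on GRCh37 by exact match.

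The members and lists were chosen with earlier results of these data known. Up to 3 called genes per list and direction, by smallest p, were named, and CLOCK and genes under the filter were named after their values had been seen. Alternatives were DESeq2 1.42.0, its size factors, upper-quartile normalization, no filter, at least 10 reads in every library, unrounded counts, the replicate block, each library left out, and an adjusted p below 0.01. Methods were tested on simulated data. The planted changes were larger than those of PER1, CRY1 and ARNTL, and no effect shared by replicate number was simulated.

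Pairing by the replicate numbers in the titles was examined next. In the 6370 genes above a mean log2 CPM of 5, deviations from the group mean correlated at 0.336, 0.247 and 0.666 for libraries with the same number, all of them positive, and control replicate 2 with PELP1-KD replicate 1 gave 0.418. The values reported come from the fit without the replicate block, and the blocked value is given where it changes a call.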

Additional observations from a re-analysis of the deposited data

How the results depend on the processing

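The number of members called lower was 3 in the fit reported, 4 with the replicate block, 2 with DESeq2 or an adjusted p below 0.01, and ranged from 2 to 3 when single libraries were dropped. The number called higher was 2 under all 14 alternatives. In the 13 fits the median log2 fold change of the members moved by less than its SD over the 3 same-numbered pairs of libraries. HLF, PER3, PER1 and CRY1 kept their direction and call in all 13 fits, and the replicate block changed no call among the members other than that of CRY2. TEF changed sign without control replicate 2 (−0.030) and without replicate 1 of PELP1-KD (−4.1e-05), and was called in no fit. The same alternatives were run for the named genes of the other lists after the data had been seen. With the replicate block, the other clock genes had 1 lower and 5 higher calls and the E-box or clock outputs 1 lower and 6 higher, and the counts for the D-box targets (2 lower, 3 higher) and the immediate early genes (8 lower, 4 higher) were those of the unblocked fit. Among the named genes FOSL1 was not called with DESeq2 (0.34, adjusted p = 0.128) or without any 1 of control replicates 1 and 2 and PELP1-KD replicates 2 and 3, where its adjusted p lay between 0.0738 and 0.12. Depth limits PER3 most, with 20 to 98 reads as counted in a library, and then ARNTL, with 93 to 174.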
